A study of Mus musculus with 7 samples.

Results

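The 8 genes described here encode all 4 Janus kinases, Jak1, Jak2, Jak3 and Tyk2, and 4 of the transcription factors they activate, Stat3, Stat5a, Stat5b and Stat6. They were chosen by name, with earlier results of these data known. They were followed through 18 probe sets of the array whose annotation names a single gene, out of 45037 probe sets in all. Each gene was represented by its brightest probe set on average, called the main probe set, which gave 8 of 18193 genes. All 8 genes and 17 of their 18 probe sets passed the filter on dim signal, which asks for a group mean of at least 5 on the log2 scale. CD4+ T cells were sorted by CD3 and CD4 from axillary, brachial, inguinal, cervical and facial nodes of 3-week-old males, after cells bearing CD11b, CD11c, CD8, B220 or NK1.1 were depleted, and their RNA was run on 7 Affymetrix arrays. Sf.Il2-/- mice (3 arrays) are scurfy mice that also carry the null allele Il2tm1Hor. Sf mice (3 arrays) carry the Foxp3sf allele alone, in the gene of the transcription factor on which regulatory T cells depend. B6 is C57BL/6 wild type, with 1 array made from a pool of 2 animals. Both mutant groups thus share the Foxp3 mutation in all cells, and Sf.Il2-/- differs from B6 at both genes.

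Cytokine receptors of this class have no enzyme activity of their own and are bound by Janus kinases, which phosphorylate the receptor tail when the cytokine binds. STAT proteins dock there, are phosphorylated in turn, pair up and enter the nucleus to switch on target genes. In T cells, JAK1 and JAK3 serve the receptors that share the common gamma chain, among them those for IL-2, IL-4, IL-7 and IL-21, with STAT5A and STAT5B as the main factors downstream of IL-2, STAT6 downstream of IL-4 and STAT3 downstream of IL-6 and IL-21. An array measures the transcripts of these genes and not the phosphorylation by which the proteins act.

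Arrays had median intensities of 29.3 to 32.4 and upper quartiles of 110 to 145. By correlation over dim probe sets the arrays fell into 2 sets that the labels do not name, with Sf.Il2-/- 1, Sf.Il2-/- 2, Sf 1 and Sf 2 in array set 1 and Sf.Il2-/- 3, Sf 3 and B6 in array set 2. The lowest correlation within a set was 0.553 and the highest between sets 0.554, so the division is uncertain. Values within array set 2 are given beside the comparisons with B6, since the B6 array lies in that set. Foxp3 read 4.41, 4.20 and 4.24 in Sf.Il2-/-, 6.04, 5.87 and 6.32 in Sf and 7.25 in B6. The Il2 probe set read 7.17, 8.20 and 7.74 in the arrays labelled Sf.Il2-/-, 5.39, 5.09 and 7.35 in Sf and 5.22 in B6, so it was not lower where the gene is labelled null, and the position of its probes in the gene is not given. All 6 tested CD4 T cell markers, which include Cd3e and Cd4, read at least 9.44 in every array. The neutrophil transcript S100a8 stood at 7.63 in Sf.Il2-/- 2 and 6.37 in Sf 1, against 2.53 to 4.10 in the other arrays.

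Jak1, the kinase that most cytokine receptors of T cells use, was the 1 member whose difference passed the test in any of the 3 comparisons. At its main probe set, 1433805_at, it read 10.58, 10.31 and 10.86 on the log2 scale in the Sf arrays, against 11.86 in the B6 array. All Sf arrays lay below B6. Jak1 was 2.41-fold lower in Sf, a log2 difference of -1.27 ± 0.25 (SE, n = 3 and 1; limma adjusted p = 0.0313, threshold 0.05), with 1 of 8 members called against 2.47% of all 11460 genes tested. In this fit the B6 array is assumed to vary like the mutant arrays. Within array set 2 the Sf array lay 0.99 below B6 at this probe set. The call was lost at adjusted p = 0.0886 without Sf 1, 0.0519 without Sf.Il2-/- 1, 0.0571 without Sf.Il2-/- 2 and 0.0614 without Sf.Il2-/- 3. The difference was -1.27 without Sf 1. Sf.Il2-/- arrays are not part of this difference, so leaving them out cannot move it. The call was also lost without the 2 arrays with neutrophil transcripts (adjusted p = 0.0749) and when the Jak1 probe sets were averaged (-1.03, adjusted p = 0.107). After quantile normalization the difference was -0.71 (adjusted p = 0.0475).

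In the Sf.Il2-/- arrays Jak1 read 11.04, 11.25 and 11.32, between the values of Sf and that of B6 without overlap on either side. Against Sf this came to 0.61 ± 0.18 on the log2 scale (SE, n = 3 each; limma adjusted p = 0.375, 95% interval 0.22 to 1.01), a 1.53-fold difference that did not pass over all genes. It was 0.69 within array set 1 and 0.45 within array set 2, and it passed without Sf 3 (0.75, adjusted p = 0.0258). After quantile normalization it was 0.19 (adjusted p = 0.721), and with the Jak1 probe sets averaged 0.40 (adjusted p = 0.753). Jak1 was the only member whose main probe set had no overlap between Sf.Il2-/- and Sf, and 8.39% of all tested genes were higher in Sf.Il2-/- without overlap. Jak1 stood -0.66 ± 0.25 from B6 (SE, n = 3 and 1; limma adjusted p = 0.204). Within array set 2 this value was -0.54, and it passed without Sf 3 (adjusted p = 0.0446).

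The Jak1 probe set 1433803_at gave the same order of groups, with 10.50, 10.64 and 10.81 in Sf.Il2-/-, 10.07, 9.58 and 10.42 in Sf and 11.39 in B6. In the fit over all 24435 probe sets that passed the filter, its differences were 0.63 for Sf.Il2-/- v Sf, -1.36 for Sf v B6 (limma adjusted p = 0.0738) and -0.74 for Sf.Il2-/- v B6. The dimmest, 1433804_at, differed from that order. It read 8.30, 8.35 and 8.12 in Sf.Il2-/-, 8.04, 8.12 and 8.73 in Sf and 8.77 in B6, so both mutant groups lay below B6 and overlapped each other. Of the 9 other member probe sets tested, 0 passed in any comparison by limma over all probe sets, where 0.0982%, 1.3% and 1.53% of probe sets were called in Sf.Il2-/- v Sf, Sf v B6 and Sf.Il2-/- v B6. At an unadjusted p under 0.05 the counts of these 9 were 1, 1 and 2, made up of 1433803_at in each comparison and the Stat3 probe set 1459961_a_at in Sf.Il2-/- v B6. Over all probe sets tested, 7.62%, 18.7% and 17.3% stood there in the same comparisons.

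**Figure D1:**
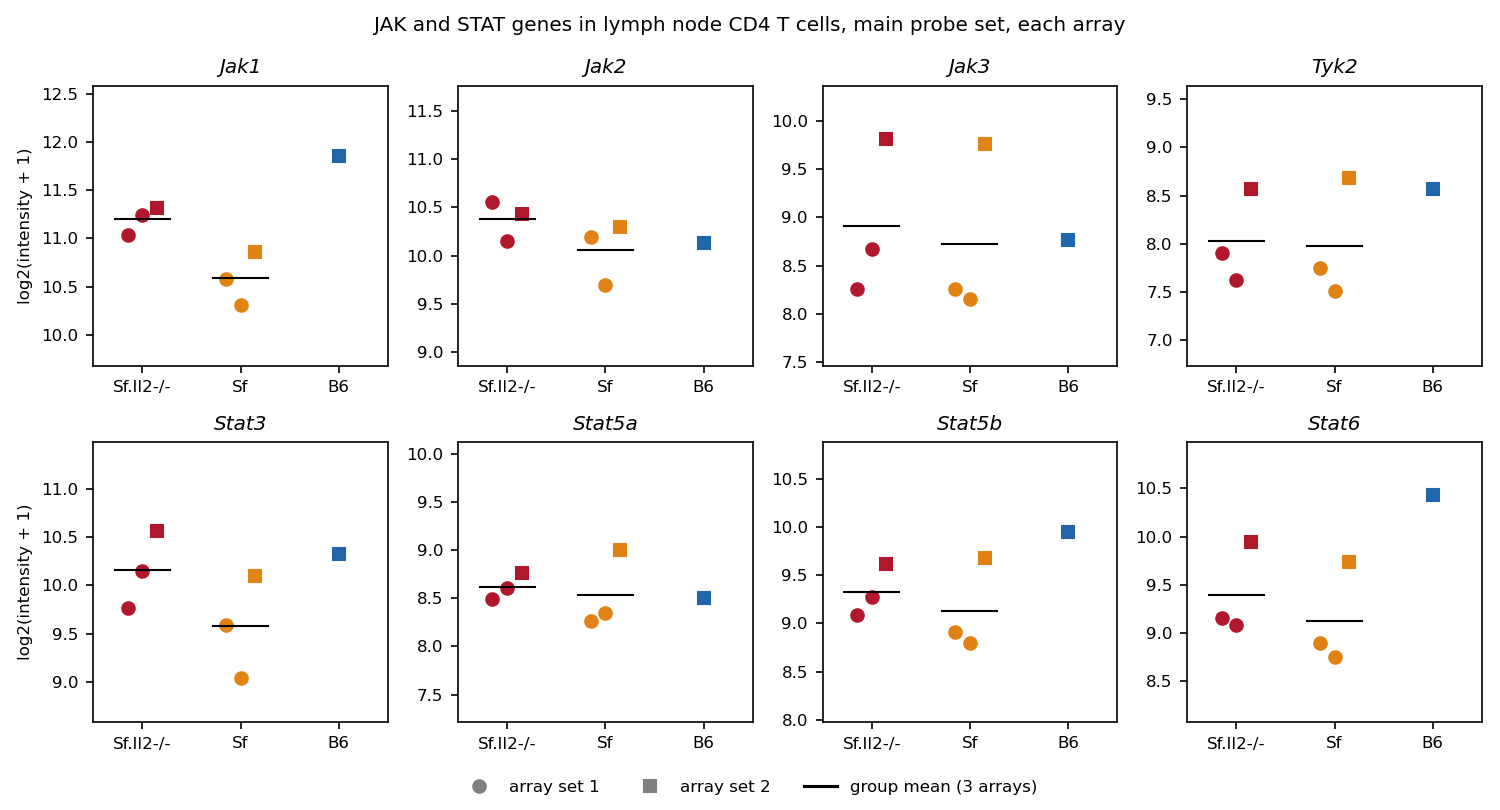
Log2(intensity + 1) of the main probe set of each JAK and STAT gene (vertical axes, each spanning the same range) in Sf.Il2-/-, Sf and B6 arrays. Each point is 1 array, circles mark array set 1, squares array set 2 and bars the mean of 3 arrays. Jak1 reads 10.31 to 10.86 in Sf, below all Sf.Il2-/- arrays (11.04 to 11.32) and the B6 array (11.86), while Jak3 reads 9.82 and 9.77 in the mutant arrays of array set 2, above all other arrays.

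Jak3, the kinase bound by the common gamma chain and expressed mainly in blood cells, was highest in the mutant arrays of array set 2. Its only probe set that names Jak3 alone read 8.26, 8.67 and 9.82 in Sf.Il2-/-, 8.26, 8.15 and 9.77 in Sf and 8.77 in B6. Sf.Il2-/- 3 and Sf 3 stood more than 1 above the other arrays of their groups, and the groups overlapped in each comparison. The differences were 0.19 ± 0.49 for Sf.Il2-/- v Sf (limma adjusted p = 0.965), -0.04 ± 0.69 for Sf v B6 (adjusted p = 0.974) and 0.15 ± 0.69 for Sf.Il2-/- v B6 (adjusted p = 0.937). The 95% intervals against B6 were wide, -1.40 to 1.69 in Sf.Il2-/- and -1.58 to 1.50 in Sf. Within array set 2 it lay 1.05 above B6 in Sf.Il2-/- and 0.996 above B6 in Sf. With the array set as a block, an alternative chosen after seeing the data, Jak3 was higher than B6 in Sf.Il2-/- by 1.12 (adjusted p = 0.0407) and in Sf by 0.93 (adjusted p = 0.0755). The annotation of 2 further probe sets names Jak3 together with Insl3, its neighbour on chromosome 8, and they were kept out of the tests. The brighter of these, 1423021_s_at, read 8.68, 9.32 and 9.79 in Sf.Il2-/-, 8.76, 8.57 and 10.04 in Sf and 9.10 in B6, again highest in the mutant arrays of array set 2.

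Jak2, the kinase of receptors such as those for interferon gamma and GM-CSF, showed no difference past the threshold. Its main probe set read 10.56, 10.15 and 10.43 in Sf.Il2-/-, 10.20, 9.69 and 10.30 in Sf and 10.13 in B6. All Sf.Il2-/- arrays lay above B6, 1 of them by very little, while the Sf arrays lay on both sides of it. The Sf.Il2-/- difference from B6 was 0.25 ± 0.30 (limma adjusted p = 0.705) and the Sf difference -0.07 ± 0.30 (adjusted p = 0.9). At the other Jak2 probe set, 1421065_at, all mutant arrays were above B6, with 9.59, 9.26 and 9.56 in Sf.Il2-/-, 9.34, 9.13 and 9.61 in Sf and 8.85 in B6. Its differences from B6 were 0.62 in Sf.Il2-/- (limma adjusted p = 0.312 over all probe sets) and 0.51 in Sf (adjusted p = 0.365), so neither passed. Between Sf.Il2-/- and Sf the main probe set differed by 0.32 ± 0.21 (adjusted p = 0.818, 95% interval -0.16 to 0.79).

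Tyk2, which works with JAK1 or JAK2 at the receptors for type I interferons, IL-12 and the IL-10 family, was lower in the arrays of array set 1 than in those of array set 2, B6 included. It read 7.90, 7.63 and 8.57 in Sf.Il2-/-, 7.75, 7.51 and 8.68 in Sf and 8.57 in B6. The arrays of set 2 were close to B6 in both mutant groups, while those of set 1 were lower. The differences from B6 were -0.54 ± 0.49 in Sf.Il2-/- (limma adjusted p = 0.604) and -0.59 ± 0.49 in Sf (adjusted p = 0.476), and within array set 2 they were 0.00167 and 0.11. Between Sf.Il2-/- and Sf the difference was 0.05 ± 0.34 (adjusted p = 0.985, 95% interval -0.72 to 0.82). A further Tyk2 probe set, 1432576_at, read 3.90 to 4.65 over all arrays and was too dim to be tested.

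Stat5a and Stat5b, close relatives whose genes lie next to each other on chromosome 11 and which carry the IL-2 signal, differed in how their main probe sets stood against B6, though no difference passed the test. Stat5b read 9.09, 9.28 and 9.62 in Sf.Il2-/-, 8.91, 8.79 and 9.67 in Sf and 9.94 in B6 at its main probe set. All mutant arrays lay below B6, and the differences of -0.62 ± 0.38 in Sf.Il2-/- (limma adjusted p = 0.425) and -0.82 ± 0.38 in Sf (adjusted p = 0.236) did not pass. Without Sf 3 the difference of Sf from B6 was -1.09 (adjusted p = 0.0146), against -0.40 (adjusted p = 0.376) with the array set as a block and -0.30 (adjusted p = 0.434) after quantile normalization. In Sf.Il2-/- those settings gave -0.20 (adjusted p = 0.683) and -0.26 (adjusted p = 0.514). Within array set 2 the differences were -0.33 in Sf.Il2-/- and -0.27 in Sf. Stat5a read 8.49, 8.60 and 8.77 in Sf.Il2-/-, 8.26, 8.35 and 8.997 in Sf and 8.50 in B6. Its B6 value fell among those of both mutant groups, with differences of 0.12 ± 0.34 in Sf.Il2-/- (limma adjusted p = 0.893, 95% interval -0.65 to 0.88) and 0.03 ± 0.34 in Sf (adjusted p = 0.958, 95% interval -0.73 to 0.80). Between Sf.Il2-/- and Sf the differences were 0.20 ± 0.27 for Stat5b (adjusted p = 0.934) and 0.08 ± 0.24 for Stat5a (adjusted p = 0.968), with 95% intervals of -0.40 to 0.81 and -0.46 to 0.62.

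At the other probe sets both genes overlapped in every comparison. Stat5b read 7.40, 7.47 and 8.27 in Sf.Il2-/-, 7.13, 7.02 and 8.21 in Sf and 8.002 in B6 at 1422102_a_at. Stat5a read 7.52, 7.69 and 8.39 in Sf.Il2-/-, 7.05, 6.95 and 8.38 in Sf and 7.56 in B6 at 1450259_a_at. The mutant arrays of array set 2 were again the highest of their groups, and above B6, at both.

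The difference between Stat5b and Stat5a within an array takes out what all probe sets of that array share, and was chosen after the values were seen. The main probe set of Stat5b minus that of Stat5a was 0.60, 0.68 and 0.85 in Sf.Il2-/-, 0.64, 0.44 and 0.68 in Sf and 1.44 in B6. All 6 mutant arrays lay below B6, in both array sets. The other pair of probe sets gave -0.11, -0.22 and -0.12 in Sf.Il2-/-, 0.08, 0.07 and -0.18 in Sf and 0.45 in B6, the same order against B6 from separate probe sets of the same RNA. For single tested genes, B6 lay above all mutant arrays in 37.3% and below them in 14.7%. The share over pairs of genes was not computed. With 1 B6 array among 7, an exact permutation test cannot give a p below 0.143 (one-sided), so none is reported. The level of 1 probe set cannot be set against that of another, so only the change of this difference between arrays is read here.

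Stat6, the factor that carries the IL-4 signal in Th2 cells, had the largest fitted difference from B6 among the 8 members, and it did not pass. Its main probe set read 9.15, 9.09 and 9.94 in Sf.Il2-/-, 8.90, 8.75 and 9.73 in Sf and 10.44 in B6. Every mutant array lay below B6. The differences were -1.04 ± 0.45 in Sf.Il2-/- (limma adjusted p = 0.253) and -1.31 ± 0.45 in Sf (adjusted p = 0.139), folds of 2.06 and 2.48. With the replicate numbers as a block, which moves none of these differences and changes the estimate of the spread, both passed, at adjusted p = 0.0278 and 0.0137. The block takes out spread that same-numbered mutant arrays share. The B6 array has no pair in it, so these p-values assume that B6 carries none of that spread. Without Sf 3 the difference of Sf from B6 was -1.61 (adjusted p = 0.0106). With the array set as a block the differences shrank to -0.47 in Sf.Il2-/- (adjusted p = 0.26) and -0.73 in Sf (adjusted p = 0.0955), and after quantile normalization to -0.64 (adjusted p = 0.24) and -0.76 (adjusted p = 0.193). The other Stat6 probe set, 1421708_a_at, read 8.12, 8.02 and 8.92 in Sf.Il2-/-, 7.95, 8.04 and 8.84 in Sf and 9.22 in B6, again with B6 highest. Within array set 2 the main probe set lay 0.50 below B6 in Sf.Il2-/- and 0.70 below it in Sf. Inside the mutant groups, the array of set 2 stood above the mean of the set 1 arrays by 0.82 in Sf.Il2-/- and by 0.91 in Sf. Between Sf.Il2-/- and Sf the main probe set differed by 0.27 ± 0.32 (adjusted p = 0.92).

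Stat3, which IL-6, IL-10 and IL-21 activate, gave different answers at its 4 probe sets. The main one, 1426587_a_at, read 9.77, 10.15 and 10.57 in Sf.Il2-/-, 9.59, 9.04 and 10.10 in Sf and 10.33 in B6. All Sf arrays lay below B6, while the Sf.Il2-/- arrays lay on both sides of it. The differences were 0.59 ± 0.30 for Sf.Il2-/- v Sf (limma adjusted p = 0.692), -0.75 ± 0.42 for Sf v B6 (adjusted p = 0.307) and -0.16 ± 0.42 for Sf.Il2-/- v B6 (adjusted p = 0.88). Sf v B6 passed without Sf 3 (-1.01, adjusted p = 0.0475), and was -0.29 with the array set as a block, -0.34 with the probe sets averaged and -0.16 after quantile normalization. With the probe sets averaged, Sf.Il2-/- v Sf was 0.06, and after quantile normalization 0.33. The probe set 1459961_a_at read 7.94, 7.31 and 7.12 in Sf.Il2-/-, 7.38, 7.44 and 8.61 in Sf and 8.70 in B6, and 1424272_at, the dimmest, read 6.63, 6.72 and 6.45 in Sf.Il2-/-, 6.86, 7.05 and 6.57 in Sf and 6.24 in B6. So B6 was the highest array at 1459961_a_at and the lowest at 1424272_at. The remaining probe set, 1460700_at, read 9.20, 9.58 and 9.73 in Sf.Il2-/-, 9.04, 8.97 and 9.83 in Sf and 9.58 in B6, with overlap in every comparison. Which transcript forms these probe sets detect was not tested.

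**Figure D2:**
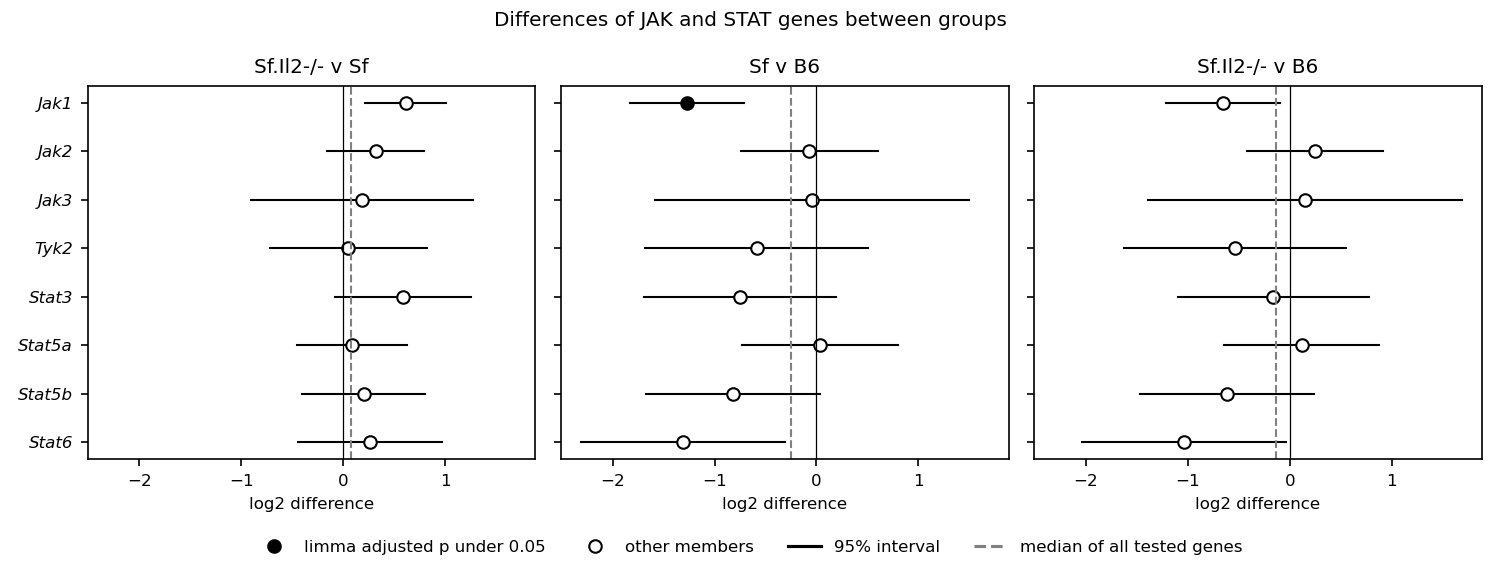
Log2 differences of the 8 main probe sets (horizontal axis) with their 95% intervals from limma for Sf.Il2-/- v Sf, Sf v B6 and Sf.Il2-/- v B6. Filled points pass the adjusted threshold and dashed lines are the medians of all tested genes. Only Jak1 in Sf v B6, at -1.27, is filled.

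Counted together, 1 of the 8 genes passed the test in 1 of the 3 comparisons. For Sf.Il2-/- v Sf 0 rose, 0 fell and 8 did neither by limma, with 1 at an unadjusted p under 0.05, against 0.279% of all tested genes called and 7.92% at an unadjusted p under 0.05. All 8 fitted differences were above 0, between 0.05 and 0.61, as were those of 62.2% of all tested genes, and under quantile normalization 2 of the 8 were below 0. The median of the 8 was 0.23, against 0.08 for all tested genes. In Sf v B6 1 fell, 0 rose and 7 did neither, with 1.16% of all tested genes called lower. At an unadjusted p under 0.05 there were 2 of 8, against 22.5% of all tested genes. The 4 members whose Sf arrays all lay below B6 were Jak1, Stat3, Stat5b and Stat6, and 46.9% of all tested genes did so, so a share of 4 in 8 is near the background. The median of the 8 was -0.67, against -0.25 for all tested genes. For Sf.Il2-/- v B6 0 of 8 passed by limma, 1 did with the replicate block (Stat6) and 2 stood at an unadjusted p under 0.05, against 2.69% called and 18.6% at an unadjusted p under 0.05 over all genes. Jak1, Stat5b and Stat6 lay below B6 in all Sf.Il2-/- arrays and Jak2 above it, where 44.5% of all tested genes were below and 24.7% above. The median was -0.35, against -0.14. Both comparisons with B6 share the 1 B6 array.

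The members also differed between array sets inside each mutant group. In Sf, the array of set 2 was the highest of the 3 for 8 of 8 members, by 0.35 to 1.56 over the mean of the other 2 arrays, where 68% of all tested genes did the same. In Sf.Il2-/- it was the highest for 7 of 8, by 0.08 to 1.35, the exception being Jak2, against 51.4% of all tested genes. The median shift of the 8 members was 0.52 in Sf.Il2-/- and 0.80 in Sf, against 0.13 and 0.35 over all tested genes. B6 lies in array set 2, and each mutant group has 2 of its 3 arrays in array set 1. At the main probe sets within array set 2, the difference from B6 stayed below 0 in both mutant groups for Jak1, Stat5b and Stat6. It was above 0 in both for Jak2, Jak3, Tyk2 and Stat5a. Stat3 was 0.24 above B6 in Sf.Il2-/- and 0.23 below it in Sf. At the other Stat5b probe set, 1422102_a_at, both mutant groups lay above B6 instead, by 0.27 in Sf.Il2-/- and 0.21 in Sf. These within-set values rest on 1 array a group and have no test.

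**Figure D3:**
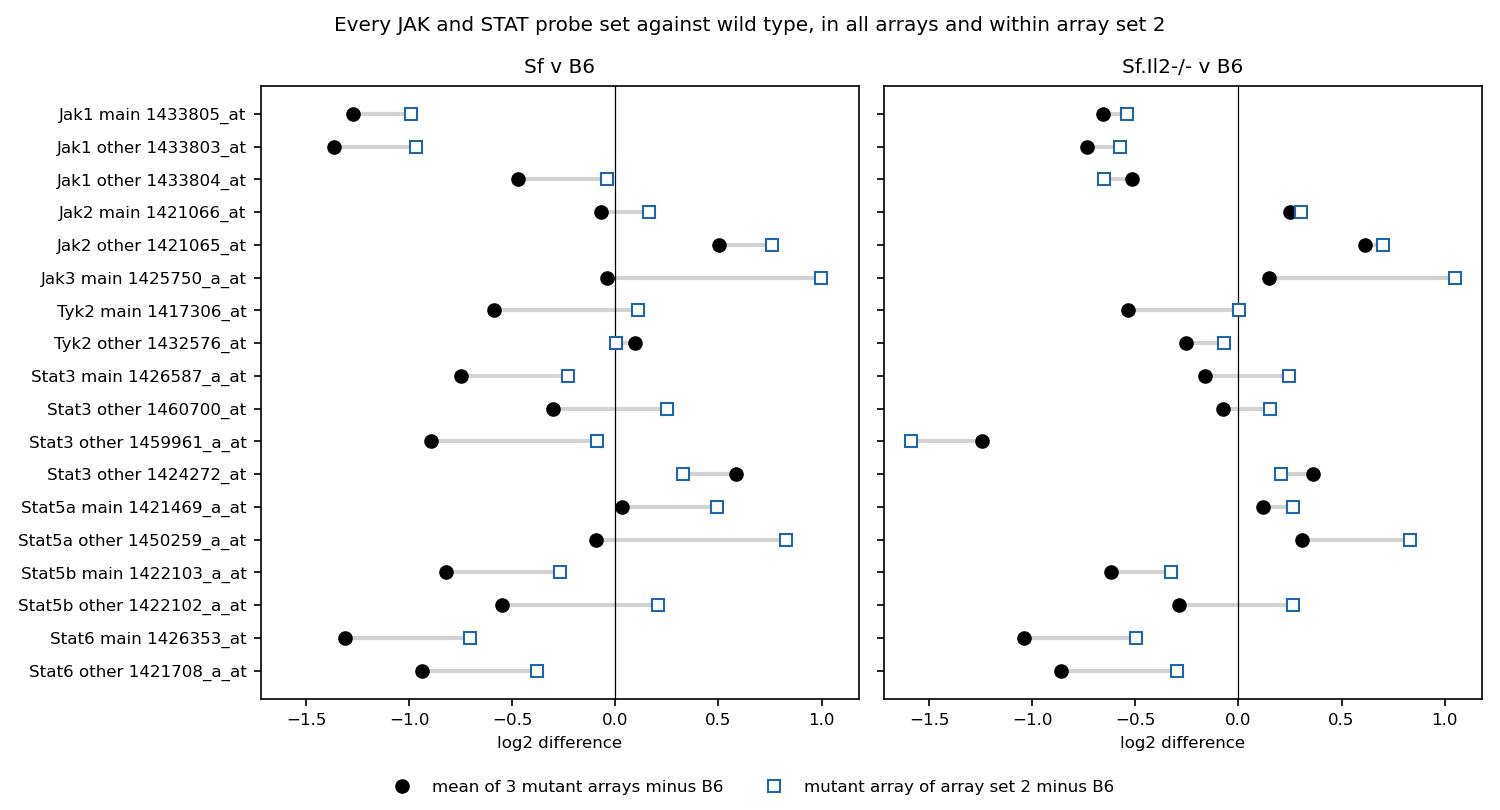
Log2 differences from B6 (horizontal axis) of all 18 member probe sets in Sf and in Sf.Il2-/-. Filled circles are the mean of 3 mutant arrays minus the B6 array, and open squares the 1 mutant array of array set 2 minus the B6 array. At the main probe sets, Jak1, Stat5b and Stat6 stay below 0 by both measures, and Jak3 moves to 0.996 and 1.05 within array set 2.

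The sorted population is bulk, so fewer cells of a type and less RNA per cell cannot be told apart. The summed intensity of the 6 CD4 T cell markers on the array ran from 12962 to 14687 in Sf.Il2-/- and from 8209 to 11323 in Sf, and was 15877 in B6. It thus had the same order of groups as Jak1, with no overlap, and its part in the Jak1 result was not tested. The B cell markers also summed highest in B6, with 1906 to 2158 in Sf.Il2-/-, 961 to 1760 in Sf and 3057 in B6, the same order of groups, and their part was not tested either. That sum is mostly Ighm, which read 9.69 to 11.53 over the arrays. The B cell markers Cd79a and Ms4a1 were lowest in B6, at 4.25 and 3.53, and read at most 4.99 and 4.95 in any array. Cd79b and Pax5 did not follow them. Cd79b was lowest in Sf.Il2-/-, at 3.99 to 4.32 against 4.89 in B6. Pax5 read 5.33 in B6, inside its range of 4.84 to 6.06 over the arrays. The 3 neutrophil markers summed to between 89.5 and 408 in Sf.Il2-/- and between 81.9 and 237 in Sf, against 94.9 in B6. The 2 CD8 T cell markers summed to between 151 and 201 in Sf.Il2-/- and between 146 and 201 in Sf, against 312 in B6.

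Jak1, Stat5b and Stat6 are the 3 members for which every mutant array lay below the B6 array at the main probe set, as it did for 37.3% of all tested genes. A share of 3 in 8 is near that background, so this does not set the 3 apart from other genes. Their promoters are shown only because these members lay on the same side of B6 in all mutant arrays at the main probe set. RefSeq (GRCm38.p6) gave a 300-base window around the start site for all 8 members, 10 windows in all since Stat5a and Stat5b have 2 starts each. The windows below are chr4:101265174-101265473 on the minus strand for Jak1, chr11:100850532-100850831 on the minus strand for Stat5b (the start with more CpG) and chr10:127642736-127643035 on the plus strand for Stat6. Capitals mark GC boxes (GGGCGG on either strand) and CCAAT boxes (CCAAT on either strand), which do not overlap each other here.
Jak1: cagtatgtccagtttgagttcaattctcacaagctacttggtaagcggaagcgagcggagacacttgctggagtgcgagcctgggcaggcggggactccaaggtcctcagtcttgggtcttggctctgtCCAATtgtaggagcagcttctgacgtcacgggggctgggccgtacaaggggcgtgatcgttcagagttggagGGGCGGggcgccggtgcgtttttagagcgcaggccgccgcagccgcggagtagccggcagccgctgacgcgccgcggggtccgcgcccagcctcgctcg
Stat5b: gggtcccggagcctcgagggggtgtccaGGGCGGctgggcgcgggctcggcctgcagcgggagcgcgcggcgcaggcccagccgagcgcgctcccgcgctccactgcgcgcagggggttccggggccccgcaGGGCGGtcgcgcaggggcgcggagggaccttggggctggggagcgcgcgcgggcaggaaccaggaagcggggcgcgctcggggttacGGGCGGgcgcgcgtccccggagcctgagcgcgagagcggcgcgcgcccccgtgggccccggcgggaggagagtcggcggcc
Stat6: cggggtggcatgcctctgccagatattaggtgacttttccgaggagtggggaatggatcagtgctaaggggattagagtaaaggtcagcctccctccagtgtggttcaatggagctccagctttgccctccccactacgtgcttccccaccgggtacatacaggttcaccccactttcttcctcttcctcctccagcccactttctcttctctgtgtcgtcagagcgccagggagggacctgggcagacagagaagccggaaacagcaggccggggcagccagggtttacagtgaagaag

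These 3 promoters differ in composition. The Stat5b window shown holds 50 CpG dinucleotides and 3 GC boxes, the Jak1 window 29 CpG, 1 GC box and 1 CCAAT box, and the Stat6 window 8 CpG and neither box. As many CpG as in the Stat5b window occur in 0.855% of the 32851 mouse promoter windows, as many as in Jak1 in 12.9% and as many as in Stat6 in 48.6%. The window at the other Stat5b start, not shown, holds 7 CpG (as many in 52.1% of windows) and neither box, so the contrast with Stat6 depends on the start chosen. A GC box occurs in 35.7% of all windows and a CCAAT box in 37.4%. The STAT site TTCNNNGAA, its form with 4 spacer bases and the forkhead site TGTTTAC, searched on both strands, were found in 0 of the 10 member windows, against 8.3%, 6.95% and 3.65% of all windows. No match says only that these letters are not in these windows.

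Around the 8 genes, the rest of the pathway was described by 9 lists holding 105 genes, of which 83 were tested. The lists were drawn up with earlier results of these data known. For Sf.Il2-/- v Sf the changes lay among the STAT5 target genes, the receptors and the inhibitors. Of 13 tested STAT5 target genes 4 fell, 0 rose and 9 did neither, with a list median of -0.39 against 0.08 for all genes. Il2ra, which gives the IL-2 receptor its high affinity, read 3.10, 4.29 and 4.11 in Sf.Il2-/- against 7.79, 7.55 and 8.36 in Sf, a difference of -4.07 ± 0.34 (limma adjusted p = 0.00132). The cytokine signalling inhibitor Socs2 read 4.29, 4.32 and 4.05 in Sf.Il2-/- against 7.36, 7.50 and 7.25 in Sf, a difference of -3.15 ± 0.20 (adjusted p = 0.000517), which was -1.63 (adjusted p = 0.0684) when its probe sets were averaged. Neither gene overlapped between the groups, and both stood near the floor in Sf.Il2-/-, so the sizes are not exact. Cish, another inhibitor of that family, fell by 1.82 (adjusted p = 0.0277) and Foxp3 fell by 1.79 (adjusted p = 0.0211). Foxp3 read 4.20 to 4.41 in Sf.Il2-/-, also near the floor, so its size is not exact either. The calls of Cish and Foxp3 were lost when some single arrays were left out. Their adjusted p rose to 0.116 for Cish and 0.0945 for Foxp3, each without Sf.Il2-/- 3.

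The other lists of that comparison held no further call. Of 7 STAT6 target genes 0 passed. All 7 differences were below 0 (median -1.46), where 62.2% of all tested genes were above 0. The lowest p was that of the Th2 cytokine gene Il13 at -4.21 (limma adjusted p = 0.0648, and 0.00186 with the replicate block). Il13 read 1.65 to 3.97 in Sf.Il2-/- and passed the filter through Sf alone, so its size is not exact. Other settings gave -4.97 to -2.65, with adjusted p up to 0.214, and it passed in 6 of 18. Of 11 STAT3 target genes 0 passed, with Batf at 0.83 (adjusted p = 0.478). Of 11 cytokine ligands 0 passed, with Csf2 at -3.18 (adjusted p = 0.0547, and 0.0489 with the replicate block). Csf2 read 2.12 to 2.78 in Sf.Il2-/- and also passed the filter through Sf alone, so its size is not exact. Other settings gave -3.68 to -1.71 for Csf2, with adjusted p up to 0.201, and it passed in 8 of 17. Irf9, the partner of STAT proteins in interferon signalling, differed by 0.40 (adjusted p = 0.822) among 3 genes, the interferon receptor chain Ifnar2 by 0.64 (adjusted p = 0.558) among 11 other JAK-coupled receptors and Nmi by 0.48 (adjusted p = 0.576) among 10 adaptors and cofactors. Over all lists 4 of 83 genes passed, and 7 did so with the replicate block, 8 with the array set as a block and 18 without Sf 3. At an unadjusted p under 0.05 the count was 22 of 83. Over all tested genes 0.279% passed and 7.92% stood at an unadjusted p under 0.05. The lists overlap, so Socs2, Il2ra and Cish stand in more than 1 of them.

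In Sf v B6 the changes lay among ligands, receptors and the targets of STAT3 and STAT6, where B6 is 1 array. Of 11 cytokine ligands 4 rose and 0 fell, namely Il21 (2.62 ± 0.30, limma adjusted p = 0.00481), Il10 (3.77 ± 0.49, adjusted p = 0.00813), Lif (2.10 ± 0.43, adjusted p = 0.0386) and Il13 (4.998 ± 1.03, adjusted p = 0.0402). Il21 read 7.94, 7.97 and 8.03 in Sf against 5.36 in B6. Il13 read 1.94 in B6, near the floor, so its size is not exact. Of 11 other JAK-coupled receptors, both chains of the IL-6 receptor fell, Il6ra by 2.70 (adjusted p = 0.00481) and Il6st by 1.92 (adjusted p = 0.0462), and Il12rb1 of the IL-12 receptor rose by 1.86 (adjusted p = 0.0398). Il6ra read 7.98, 7.52 and 7.39 in Sf against 10.33 in B6. Of the 7 common gamma chain receptors 0 passed, with Il7r at -0.78 (adjusted p = 0.183).

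Of 11 STAT3 target genes Il21 and Maf (1.85, adjusted p = 0.0115) rose, and of 7 STAT6 target genes Epas1 (3.28, adjusted p = 0.0292), Il13 and Nfil3 (3.00, adjusted p = 0.0407) rose. Of 13 STAT5 target genes Gzmb, the granzyme B gene, rose by 3.07 (adjusted p = 0.0153). Usp18, an interferon-induced inhibitor of interferon signalling, fell by 2.00 (adjusted p = 0.0447) among 19 inhibitors and phosphatases. Irf9 at -0.92 (adjusted p = 0.199) and Sos1 at -1.04 (adjusted p = 0.0957, and 0.0315 with the replicate block) had the lowest p in lists with 0 calls. List medians were 2.54 for ligands, 1.04 for STAT3 targets, 3.00 for STAT6 targets and 0.01 for STAT5 targets, against -0.25 for all genes. A gene could pass the filter through a mutant group alone, and Il10, Lif, Il13 and Nfil3 read below 5 in B6. These medians are thus partly set by the filter. Less the median of all genes, that of STAT6 targets was 3.25 and ran from 0.88 to 3.44 in other settings. That of ligands was 2.78 and ran from 1.69 to 2.88. The calls of Lif, Il13, Il12rb1, Il6st, Epas1, Nfil3 and Usp18 were lost without Sf 1, at adjusted p between 0.0564 and 0.0994. With probe sets averaged, Il21 was at 1.57 (adjusted p = 0.0561) and Lif at 1.04 (adjusted p = 0.187), and the calls of Il13, Nfil3, Usp18 and Il6st were lost at adjusted p of 0.055 to 0.0564. Over all lists 12 of 83 genes passed and 35 stood at an unadjusted p under 0.05, with 29 passing under the replicate block, 5 without Sf 1 and 39 without Sf 3. Over all tested genes the shares were 2.47% and 22.5%.

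In Sf.Il2-/- v B6, more STAT5 target genes fell than rose, and the STAT3 target genes that passed rose. Of 13 STAT5 targets 4 fell and 1 rose, the falls being Foxp3 (-2.96, limma adjusted p = 0.00263), Socs2 (-2.10, adjusted p = 0.00973), Il2ra (-3.09, adjusted p = 0.014) and the G1 cyclin gene Ccnd2 (-1.63, adjusted p = 0.0352), the last named after its value was seen. Gzmb rose by 3.68 (adjusted p = 0.00767). Of 11 STAT3 targets 4 rose and 0 fell, namely Il21 (3.11, adjusted p = 0.00172), Maf (1.84, adjusted p = 0.0114), Batf (2.60, adjusted p = 0.014) and Rora (2.37, adjusted p = 0.0383). The Rora call was lost without any 1 Sf.Il2-/- array (adjusted p = 0.0662, 0.0894 and 0.0748), and that of Socs2 when its probe sets were averaged (-1.12, adjusted p = 0.182). Foxp3, Socs2 and Il2ra stood near the floor in Sf.Il2-/-, so their sizes are not exact. Whether the targets of STAT5 and STAT3 differ was not tested. Il6ra fell by 2.61 (adjusted p = 0.00471), Il10 rose by 2.89 (adjusted p = 0.0182), and Ecm1 of the STAT6 targets fell by 2.61 (adjusted p = 0.0103). Irf9 at -0.52 (adjusted p = 0.51) and Ep300, a transcriptional coactivator, at -1.06 (adjusted p = 0.162, and 0.0278 with the replicate block) had the lowest p in lists with 0 calls. Over all lists 12 of 83 genes passed and 30 stood at an unadjusted p under 0.05, with 24 passing under the replicate block, 19 with the array set as a block and 22 without Sf 3. Over all tested genes the shares were 2.69% and 18.6%.

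**Figure D4:**
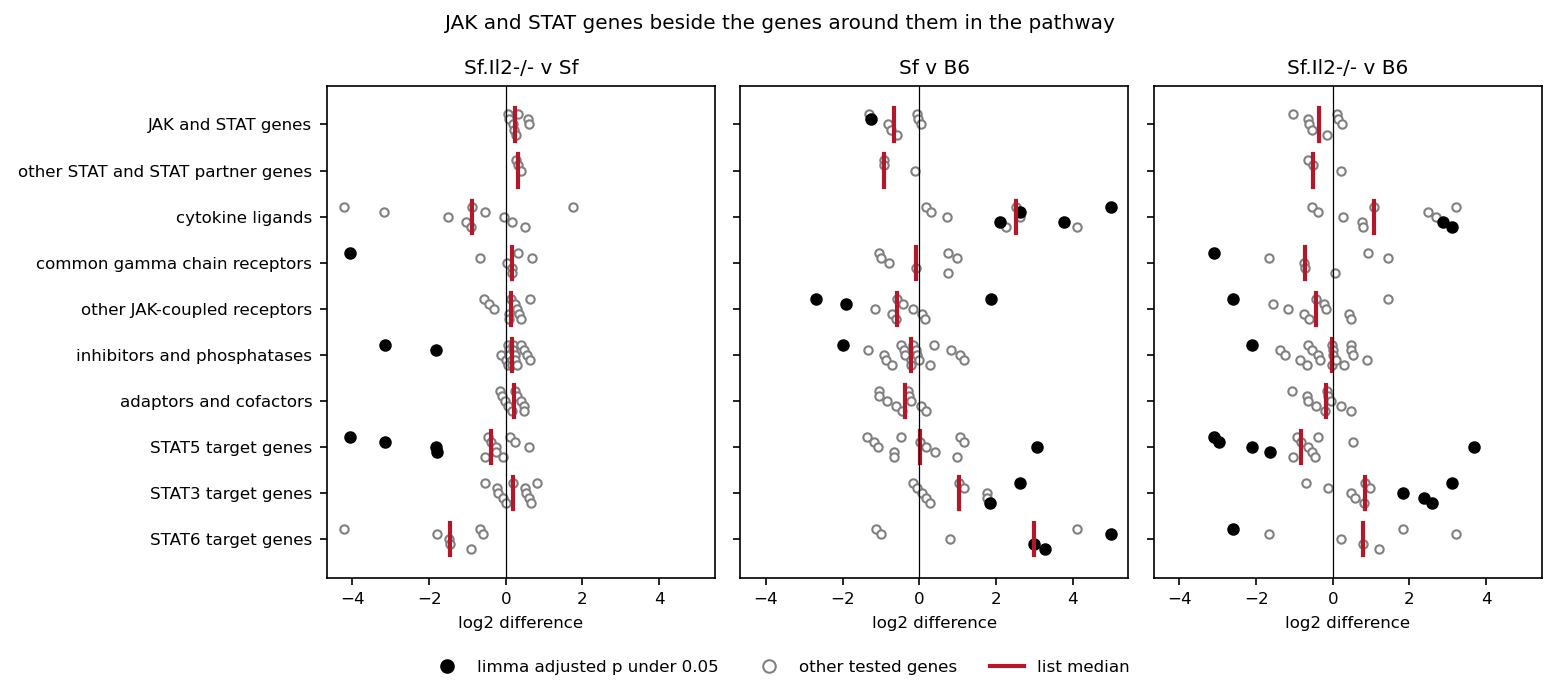
Log2 differences (horizontal axis) of the tested genes in the JAK and STAT group and in 9 pathway lists, for Sf.Il2-/- v Sf, Sf v B6 and Sf.Il2-/- v B6. Filled points pass the limma threshold and red bars are list medians. The JAK and STAT genes lie between -1.31 and 0.61 in all 3 panels, while Il2ra reaches -4.07 among STAT5 targets and Il13 4.998 among ligands.

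The tested genes whose log2 values ran most like each member over the 7 arrays were Eif2b2 and Tgfbr2 for Jak1 (Pearson correlation 0.995 and 0.994), Rpp30 and Gtf2e1 for Jak2 (0.976 and 0.955), Pnkd and Pglyrp1 for Jak3 (0.989 for each) and Psip1 and Tubgcp5 for Tyk2 (0.997 and 0.996). For the STAT genes they were Chmp1a and Mrpl44 for Stat3 (0.997 and 0.985), Gde1 and Pms1 for Stat5a (0.994 and 0.989), Mphosph10 and Glg1 for Stat5b (0.999 and 0.998) and Ncoa5 and Syvn1 for Stat6 (0.997 and 0.995). Tgfbr2, the TGF-beta receptor 2 chain, read 10.72, 11.14 and 11.11 in Sf.Il2-/-, 10.23, 10.02 and 10.65 in Sf and 11.85 in B6, the order of groups seen in Jak1. These values were picked as the highest over all tested genes, from 7 points that share array sets and scaling. After quantile normalization 2 of the 16 pairs were still among the highest, and 8 were when arrays were centred on their medians.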

How the data were processed

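The authors deposited 1 value table of intensity values for the 7 arrays. Per the submitters' processing notes the tools were GCRMA and GCOS. Versions, order and any other normalization are not given in the sources used here. The members and gene lists were chosen with earlier results of these data known.

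Values were taken as log2(intensity + 1) with no further scaling. Of 45037 probe sets, 34945 name 1 gene, 932 several and 9160 none, and 34741 symbols were updated through RefSeq. A gene was its probe set with the highest mean, and 11460 of 18193 genes had a group mean of at least 5. limma 3.58.1 (R 4.3.3) fitted 3 group means over all arrays, with an intensity trend and Benjamini-Hochberg adjustment over all genes tested. B6, with 1 array, took its spread from the mutant arrays. The fit was also run on simulated data, with noise independent between arrays and the same spread in every group. That simulation therefore cannot check shifts that arrays share or the spread of B6. Array number limits the precision, and p-values set each difference against the spread between the mutant arrays. They hold no measure of the spread between wild-type samples.

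Named genes were the 8 members, up to 4 called genes of a list by lowest p (otherwise the lowest p), the 2 genes most like each member, and label and marker checks. Mutant arrays of the same number deviated together (correlations 0.301, 0.211 and 0.505 for numbers 1, 2 and 3), so the numbers were treated as pairs in the replicate block. The B6 array has no pair and stays outside this block. Sf.Il2-/- 1 correlated more with Sf 2 (0.333) than with Sf 1, and all pairs within array set 1 were positive, so pairing by number and by array set cannot be told apart. In all, 18 alternative settings were run, 2 of them chosen after seeing the data, and the array set block of the comparisons with B6 was also added then.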

Additional observations from a re-analysis of the deposited data

How the results depend on the processing

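Of 400 alternative values for the 24 pairs of a member and a comparison, 353 kept their direction and side of the threshold, 8 lost a call, 8 gained one and 31 turned sign. All that turned sign were uncalled, and the cause was not tested. The 8 lost calls were all of Jak1 in Sf v B6, the 1 call of a member, lost in 8 of its 16 alternatives. Changing the filter, the trend or the replicate block leaves a difference as it is. So does leaving out an array that is not in the comparison, so part of this agreement was fixed in advance. The B6 comparisons rest on 1 B6 array, and dim probe sets have no exact size.

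The replicate block treats same-numbered mutant arrays as a pairing, with B6 outside it. It called 2 members in Sf v B6, 1 in Sf.Il2-/- v B6 and 0 in Sf.Il2-/- v Sf. In the same comparisons 1878, 1280 and 60 of all genes were called, against 283, 308 and 32, and 29, 24 and 7 pathway genes, against 12, 12 and 4.

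Members called in Sf v B6 numbered 0 with the mean of probe sets, with no filter, with no intensity trend and without the 2 arrays with neutrophil transcripts, and 0 to 4 when single arrays were left out (4 without Sf 3). In Sf.Il2-/- v B6 there was 1 (Jak3) with the array set as a block, and 0 to 1 when single arrays were left out. In Sf.Il2-/- v Sf there were 0 to 1 when single arrays were left out.

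All genes called in Sf v B6 numbered 605 with the array set block, 188 with the mean of probe sets, 161 with no filter, 554 after quantile normalization (391 higher and 163 lower, against 150 and 133) and 116 to 3523 when single arrays were left out, the last without Sf 3. In Sf.Il2-/- v B6 they numbered 721, 138 with no filter, 723 after quantile normalization (484 higher and 239 lower, against 171 and 137) and 129 to 1541. In Sf.Il2-/- v Sf they numbered 74, 11 with no filter, 588 in array set 1 alone (353 higher and 235 lower, against 5 and 27) and 8 to 872, the last without Sf 3. Pathway genes called in Sf v B6 numbered 7 with log2(value + 16), 6 with the mean of probe sets, 6 with no filter, 6 with no trend and 5 to 39 when single arrays were left out. In Sf.Il2-/- v B6 they numbered 19 with the array set block and 11 to 22 with single arrays left out, and in Sf.Il2-/- v Sf 8 with that block, 14 in array set 1 alone and 2 to 18.

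Differences that turned sign with the array set block were those of Jak2 (0.076), Jak3 (0.93) and Tyk2 (0.031) in Sf v B6 and of Stat3 (0.30) and Tyk2 (0.083) in Sf.Il2-/- v B6. After quantile normalization they were those of Jak2 (0.57) and Jak3 (0.35) in Sf v B6, Stat3 (0.17) in Sf.Il2-/- v B6, and Jak2 (-0.033) and Stat5a (-0.016) in Sf.Il2-/- v Sf. With the mean of probe sets they were Jak2 (0.22) and Stat5a (-0.029) in Sf v B6 and Tyk2 (-0.15) in Sf.Il2-/- v Sf, and with arrays centred on medians Stat5a (-0.035) in Sf v B6. Without the neutrophil arrays they were Jak3 (0.19) in Sf v B6 and Stat5a (-0.045) in Sf.Il2-/- v Sf. With single arrays left out, values on both sides of 0 ran from -0.19 to 0.12 for Jak2, -0.56 to 0.24 for Jak3 and -0.20 to 0.17 for Stat5a in Sf v B6, and from -0.31 to 0.48 for Jak3 and -0.37 to 0.036 for Stat3 in Sf.Il2-/- v B6. Between Sf.Il2-/- and Sf they ran from -0.26 to 0.71 for Jak3, -0.054 to 0.31 for Stat5a, -0.0055 to 0.57 for Stat6 and -0.22 to 0.40 for Tyk2. Quantile normalization moved the median of all genes to 0.02 in Sf v B6, against -0.25.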

Other observations

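Jak1 minus Jak2, taken within each array at the main probe sets, was 0.48, 1.10 and 0.88 in Sf.Il2-/-, 0.39, 0.62 and 0.57 in Sf and 1.73 in B6. Over all 6 pairs of a Jak1 and a Jak2 probe set the B6 array stood above the highest mutant array, by 0.21 to 1.15. The 6 pairs reuse the same probe sets and the same B6 array, so they are not separate results. For single tested genes, B6 lay above all mutant arrays in 37.3% and below them in 14.7%, and the share over pairs was not computed. These differences were chosen after the values were seen and have no test.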
